A study of Rattus norvegicus with 12 samples.

Results

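In 23 transcripts of the rat nucleus accumbens shell no enriched rat overlapped any isolated rat, in most of them by a narrow gap. All 6 rats in an enriched environment (EE) were above all 6 rats in isolation (IC) for 17 of them, and all 6 EE rats were below all 6 IC rats for the other 6. The transcripts were chosen by that order, among those that passed the filters on counts given below. Each rat's counts were first divided by its total without the 8 transcripts with the largest sums, giving counts per 1000000 (CPM). The order was then read for transcripts with at least 100 counts summed over the 12 rats and without 0 counts in all 3 rats of any group. The rule applied to 17520 of the 41064 transcripts listed, so 0.131% of them were separated, 0.097% with EE higher and 0.0342% with EE lower. Because the housing order chose the 23, their housing values below are a description without a test. Tests were kept to abstinence length and to its interaction with housing. The rule used the abstinence labels only to leave out transcripts with 0 counts in a whole group. The same values of the 12 rats entered the rule, which favours transcripts with little spread within housing beside the housing difference. Counts of the 23 called in these tests, beside shares of all transcripts, are therefore a description too.

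The rats were adult male Sprague-Dawley rats, and every one of them had self-administered cocaine. There was no group without cocaine. Abstinence was imposed for 1 day (1D) or 21 days (21D). All rats had lived alone before it. IC rats stayed alone over that time, whereas EE rats had cage mates, a wheel for exercise and toys. This gave IC1D, IC21D, EE1D and EE21D with 3 rats each, and RNA came from punches of both hemispheres pooled per rat, taken after a 1-h test of responding to cocaine cues. Social contact, exercise and toys came together in EE and cannot be told apart, nor is it known which EE rats shared a cage. Enrichment began with abstinence and lasted as long, so EE1D rats had 1 day of it and EE21D rats 21 days. Toys were exchanged every 3 days, an interval longer than the time EE1D rats spent in enrichment. Within EE, length of abstinence and length of enrichment cannot be told apart. Rats are named here by group and number.

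The nucleus accumbens shell is a part of the ventral striatum in which GABAergic medium spiny neurons, the main cell type, receive dopamine from the ventral tegmental area and glutamate from cortex, hippocampus and amygdala. It is known for its part in reward and in drug seeking prompted by cues. Cue-prompted cocaine seeking typically grows over the first weeks of abstinence, which is called incubation, and enriched housing is known to lower it. A gene usually gives several transcripts through alternative promoters, splicing and ends, and a change in the use of these isoforms can move 1 transcript without moving the gene as a whole.

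The values are counts per Ensembl transcript. The files do not pair these identifiers with gene names, and none of the 23 could be matched to a gene here, so what each one encodes, its promoter and the markers of the labelled tissue were not analysed here. The 17 transcripts higher in EE are called H1 to H17 and the 6 lower in EE L1 to L6, each numbered from the most to the fewest summed counts. The program that made the counts divided reads among isoforms of a gene, which leaves the count of any 1 transcript uncertain where isoforms overlap. In pooled tissue, fewer cells of a type and less RNA per cell cannot be told apart.

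Totals ran from 11725831 to 26975339 counts per rat, and from 4714969 to 11364580 without the 8 largest transcripts, which held 52.1% to 75.6% of a library. One library stood apart: in rat 2 of IC21D 13936 transcripts had a count, against 19571 to 23306 in the other 11 rats, its total without the 8 was the smallest and the share of the 8 was the largest. That rat had 0 counts for 27.3% of the 17520 transcripts. Folds and medians in which that rat weighed are given below with and without it. Over all 17520, the median difference of mean log2(CPM + 0.25) between EE and IC was 0.11, a shift toward EE that every housing difference below is to be read against. The shift was 0.03 without rat 2 of IC21D.

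**Figure D1:**
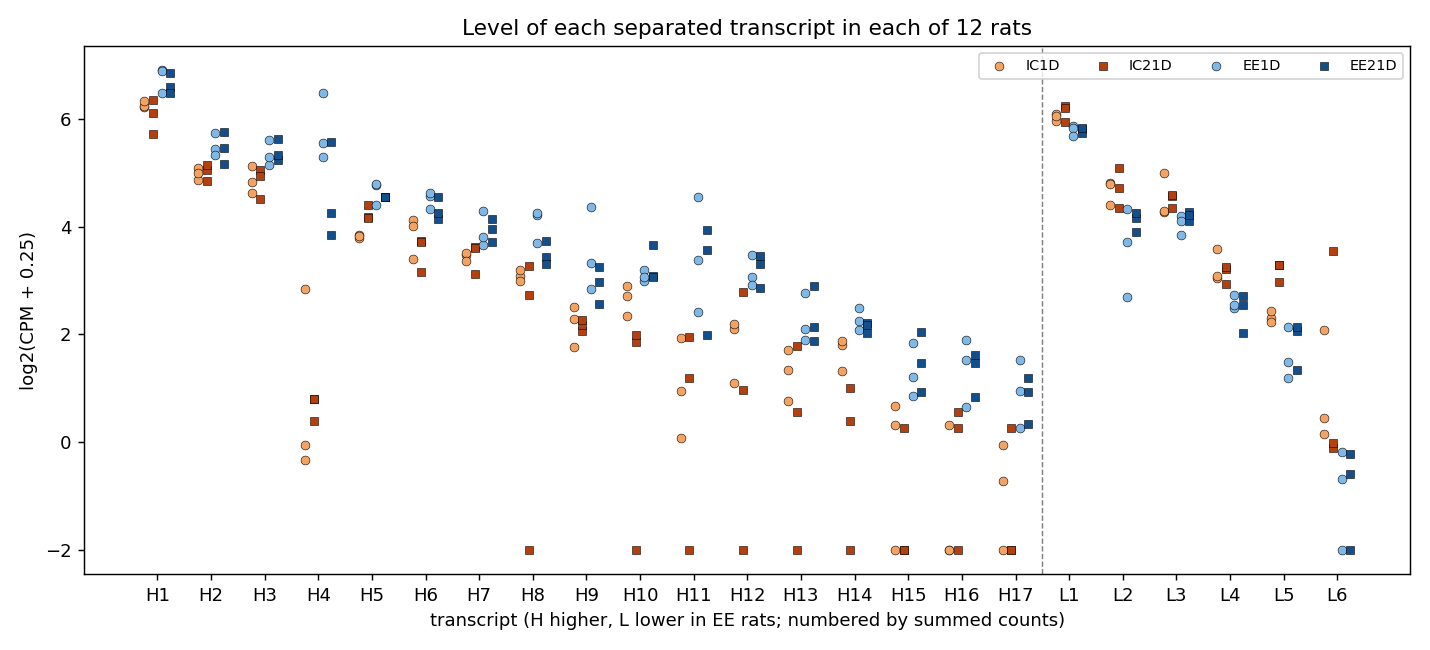
Level of each of the 23 transcripts in each of the 12 rats, as log2(CPM + 0.25). Each point is 1 rat, orange for IC and blue for EE, with circles for 1 day and squares for 21 days of abstinence. The points at the bottom edge are rats with 0 counts, among them rat 2 of IC21D for 9 of the 17 H transcripts, and H4 is the transcript with a wide space between orange and blue.

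H4, ENSRNOT00000086769, differed most between housing conditions. Its level was 6.92, 0.543 and 0.718 CPM in the IC1D rats and 1.49, 1.48 and 1.06 CPM in the IC21D rats. In the EE1D rats it was 39.0, 89.4 and 46.3 CPM, and in the EE21D rats 47.1, 14.2 and 18.8 CPM. The lowest EE rat thus stood clear of the highest IC rat, and the other 5 IC rats lay well under both. Behind these levels were 62, 6, 5, 11, 7 and 10 counts in the 6 IC rats and 140 to 562 counts in the 6 EE rats. The mean was 2.04 ± 2.42 CPM (SD, n = 6) in IC and 42.4 ± 26.9 CPM (SD, n = 6) in EE, a 20.8-fold difference of means. Rat 1 of IC1D held most of the isolated level, and without it the IC mean was 1.06 ± 0.433 CPM (SD, n = 5) and the fold was 40.1.

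H4 was also the only one of the 23 that stayed separated however the libraries were scaled. Its difference of mean log2(CPM + 0.25) was 4.42 under the rule's scaling and 4.34 to 4.43 under 4 others (trimmed mean of M-values, DESeq2 size factors, upper quartile, and totals with all transcripts). The gap between its lowest EE rat and its highest IC rat was 1.01 log2 units. No other member had a gap above 0.21.

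Apart from H4, the H transcripts with the most counts had small housing differences and rats close together. H1, ENSRNOT00000025198, had 8735 counts over the 12 rats. Its level was 73.9, 74.8 and 79.7 CPM in IC1D, 68.5, 80.8 and 52.4 CPM in IC21D, 88.7, 119.6 and 118.7 CPM in EE1D and 96.4, 115.0 and 89.2 CPM in EE21D. The mean was 71.7 ± 10.4 CPM in IC and 104.6 ± 14.7 CPM in EE (SD, n = 6 each), a 1.46-fold difference. The highest IC rat, rat 2 of IC21D, and the lowest EE rat, rat 1 of EE1D, were 0.13 log2 units apart.

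H2, H3, H5, H6 and H7 were alike in size, with folds of 1.41, 1.43, 1.48, 1.63 and 1.41. Without rat 2 of IC21D the folds were 1.38, 1.37, 1.51, 1.53 and 1.36. The gaps of these 5 transcripts were between 0.0012 and 0.042 log2 units, so that the nearest EE and IC rats were nearly level. In H3, for example, the highest IC rat was at 34.82 CPM and the lowest EE rat at 34.85 CPM, although the means were 28.9 ± 4.78 and 41.3 ± 5.93 CPM (SD, n = 6 each). In H5 the same 2 values were 20.88 and 20.91 CPM.

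H8 to H14 had 2.05-fold to 5.87-fold higher means in EE, and in all of them except H9 rat 2 of IC21D had 0 counts. H8 had 8.26, 8.86 and 7.75 CPM in IC1D, 9.36, 0 and 6.37 CPM in IC21D, 18.3, 18.9 and 12.7 CPM in EE1D and 13.1, 10.5 and 9.70 CPM in EE21D. Its fold was 2.05 with all rats and 1.71 without rat 2 of IC21D. H11 had the largest fold of these, with 1.95 ± 1.46 CPM in IC and 11.5 ± 7.10 CPM in EE (SD, n = 6 each). Its EE rats spread widely, from 3.74 to 23.2 CPM, and the lowest of them was only 0.05 log2 units above the highest IC rat at 3.61 CPM. Without rat 2 of IC21D the fold was 4.89 for H11, 1.75 for H10, 2.40 for H12, 2.16 for H13 and 1.87 for H14.

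H15, H16 and H17 rested on few reads, 160, 146 and 102 counts over all 12 rats. Their folds of 4.58, 4.51 and 4.91 compare means of 2.50, 2.39 and 1.66 CPM in EE with 0.547, 0.530 and 0.338 CPM in IC, and in each of them 3 of the 6 IC rats had 0 counts. Without rat 2 of IC21D, 1 of those 3, the folds were 3.81, 3.76 and 4.09. The order of H17 turned on the scaling of a handful of reads, since rat 1 of IC21D had 7 counts and 0.949 CPM and rat 2 of EE1D had 6 counts and 0.954 CPM. At this depth 3 counts, taken as the detection limit, correspond to between 0.264 and 0.636 CPM, which is close to the isolated levels of these 3 transcripts.

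L1, ENSRNOT00000041177, had the most counts of the 6 transcripts lower in EE, 6027 over the 12 rats. Its level was 68.1, 62.3 and 66.2 CPM in IC1D, 75.4, 73.2 and 61.0 CPM in IC21D, 58.4, 56.4 and 50.7 CPM in EE1D and 55.6, 52.8 and 56.6 CPM in EE21D. The EE rats lay within a narrow range under the lowest IC rat, with 55.1 ± 2.81 CPM in EE and 67.7 ± 5.76 CPM in IC (SD, n = 6 each). This 1.23-fold difference was the smallest of all 23.

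L4, ENSRNOT00000021939, had the widest gap of the L transcripts, 0.21 log2 units. It had 11.7, 8.05 and 8.18 CPM in IC1D, 9.08, 9.33 and 7.43 CPM in IC21D, 6.40, 5.41 and 5.62 CPM in EE1D and 6.34, 3.85 and 5.57 CPM in EE21D. The mean in IC was 1.62-fold that in EE. L2, L3 and L5 had IC means 1.73-fold, 1.33-fold and 2.15-fold those in EE. Without rat 2 of IC21D these folds were 1.63, 1.32 and 1.97.

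L6 had the largest fold of the L transcripts and the fewest counts, 142. It had 1.12, 3.98 and 0.861 CPM in IC1D, 0.678, 11.5 and 0.743 CPM in IC21D, 0.377, 0.636 and 0 CPM in EE1D and 0, 0.607 and 0.413 CPM in EE21D. Its IC mean of 3.14 ± 4.26 CPM was 9.26-fold its EE mean of 0.339 ± 0.282 CPM (SD, n = 6 each). Rat 2 of IC21D carried much of that, and the fold without it was 4.36.

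Across the 17 H transcripts the fold of means ran from 1.41 to 20.8 with a median of 2.24, and across the 6 L transcripts from 1.23 to 9.26 with a median of 1.68. The median difference of mean log2(CPM + 0.25) was 1.54 for H and -0.76 for L, beside 0.11 over all 17520. The H medians depended on rat 2 of IC21D. Without it the H median fold was 1.87 and the H median log2 difference was 0.92. The L median fold was then 1.62 and the L median log2 difference -0.72. A mean fold of at least 2 in either direction was found for 13 of the 23 and for 1090 of the 17520 transcripts, and without rat 2 of IC21D for 9 of the 23 and 975 of the 17520, so most transcripts with such a fold had overlapping rats.

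**Figure D2:**
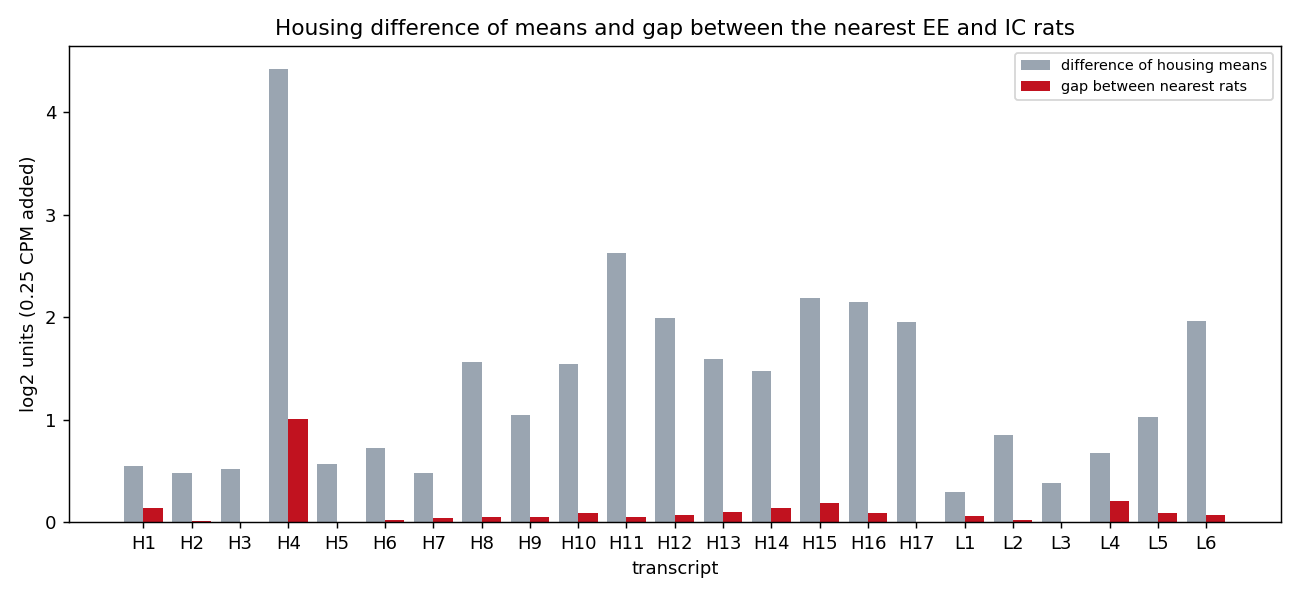
Absolute difference between the EE and IC means (grey) and gap between the nearest EE and IC rats (red) for each transcript, both in log2 units with 0.25 CPM added. H4 has a difference of 4.42 and a gap of 1.01, while 18 of the 23 gaps are under 0.1.

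The gaps were small beside the differences of means. In 18 of the 23 transcripts the lowest rat of the higher condition was less than 0.1 log2 units above the highest rat of the lower one, and in 5 it was less than 0.01 above. Expressed in reads of that lowest rat, the gap was less than 1 count for 6 transcripts and less than 3 counts for 15. It was more than 10 counts for 3, namely H4 with 71.6, H1 with 42.0 and L1 with 24.2. In the counts before scaling, only H4 and H16 had all EE rats on one side of all IC rats.

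Several rats shared the edge. Among the H transcripts the lowest EE rat was from EE1D for 8 and from EE21D for 9, and the highest IC rat was from IC1D for 7 and from IC21D for 10, most often rat 1 of IC21D (6 of 17). The highest of all 12 rats was rat 2 of EE1D for 7 of the 17. Rat 2 of IC21D was alone the lowest of all 12 for 10 of the 17. In H15, H16 and H17 that rat was tied at 0 counts with other IC rats. It had 0 counts for 9 of the 17 (52.9%), beside 27.3% of the 17520, and was the only rat at 0 for 6. Its part in the H list was not tested. Applying the rule to the other 11 rats gave 26 transcripts higher and 17 lower in EE, together 0.247% of 17378. Transcripts in full order over 12 rats are in order over any 11 of them, so the presence of the members there carries no information. L6 was left out only because its sum fell to 88 counts.

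The summed counts of the 23 ranged from 102 to 8735 with a median of 711, beside a median of 1593.5 over the 17520, and 9 of the 23 lay above the latter. Every rat had a count for 13 of the 23 (67.1% of the 17520), and 12 of the 23 had at least 10 counts in every rat.

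Just outside the rule, values were barely different. The nearest transcript that missed the H list had its lowest EE rat at 33.55 CPM and its highest IC rat at 33.66 CPM. The nearest that missed the L list had its lowest IC rat at 21.13 CPM and its highest EE rat at 21.15 CPM. Under the minimum of 100 counts, 2 further transcripts with 59 and 54 counts had all EE rats higher when the minimum was 50. Of the 843 transcripts with enough counts that were left out for 0 counts in a whole group, 0 were separated. Abstinence length, read with the same filters, separated 14 of the 17520 transcripts (0.0799%), 4 higher (0.0228%) and 10 lower (0.0571%) at 21 days.

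**Figure D3:**
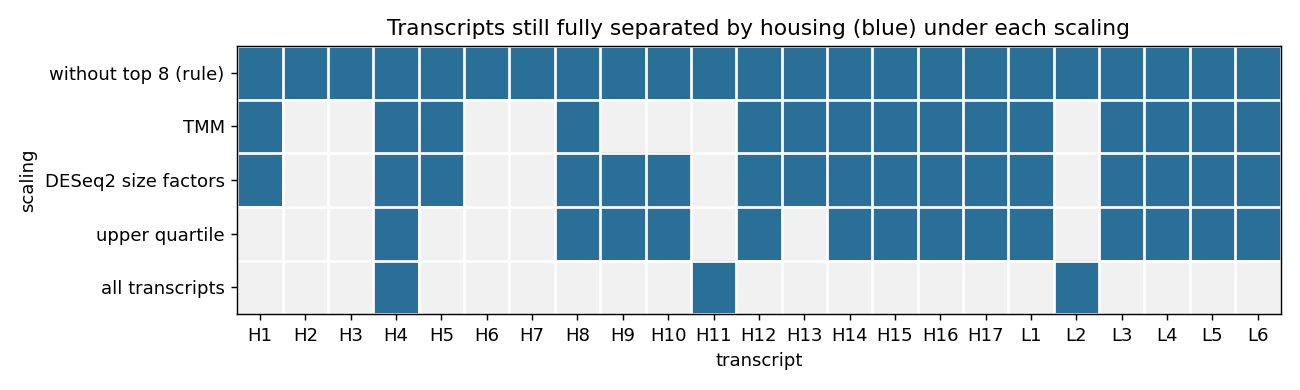
Transcripts that remained fully separated by housing (blue) under the rule's scaling and 4 other scalings of the libraries. H4 is blue under all 5, H2, H3, H6 and H7 only under the rule's scaling, and H11 and L2 under the rule's scaling and totals with all transcripts.

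How the libraries were scaled changed which transcripts were separated and the balance of directions. With the rule's scaling 73.9% of the separated transcripts were higher in EE. Under the same scaling, 65.0% of all transcripts the rule was applied to had a higher mean log2(CPM + 0.25) in EE. The balance of directions under the rule's scaling is to be read against that share. Scaling by the trimmed mean of M-values (TMM) gave 11 higher and 10 lower (52.4% higher), DESeq2 size factors 13 and 10 (56.5%), the upper quartile 10 and 11 (47.6%) and totals with all transcripts 5 and 4 (55.6%). A share of all transcripts with a higher mean in EE is not given for these scalings. Their median log2 difference over all 17520 was 0.07 with TMM, 0.07 with DESeq2 size factors, 0.03 with the upper quartile and 0.13 with totals of all transcripts. Of the 23, TMM kept 15, DESeq2 size factors 17, the upper quartile 14 and totals with all transcripts 3. The 4 transcripts H2, H3, H6 and H7 overlapped under each other scaling, and 11 of the 23 were separated under 3 of the 4. The difference of means kept its sign for all 23 under all 4 other scalings, the smallest being 0.27 log2 units, in L1.

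Abstinence length was tested, as its labels entered the rule only through the filter on 0 counts in a whole group. The comparison asks whether transcripts ordered by housing also moved between 1 and 21 days of abstinence, which in EE are also days of enrichment. The rule favoured little spread within housing beside the housing difference. Low counts of members called here and for the interaction are therefore not independent of the rule. With edgeR's quasi-likelihood test, housing as a covariate and Benjamini-Hochberg adjustment over 28622 transcripts, 0 of the 23 passed an adjusted p of 0.05, beside 0% of all transcripts tested. At an unadjusted p of 0.05 the count was also 0 of 23, beside 2.4% of the 28622 and 1.16% of the 17520. DESeq2's Wald test called 0 of the 22 it gave a value for and 12 transcripts in the whole table. It put H14 and L5 at an unadjusted p of at most 0.05, beside 2.53% of the 28622.

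The smallest edgeR p of the 23 belonged to H4. Its level averaged 58.2 ± 27.2 CPM in EE1D and 26.7 ± 17.8 CPM in EE21D, and 2.73 ± 3.63 CPM in IC1D and 1.35 ± 0.246 CPM in IC21D (SD, n = 3 each). The ranges at 1 and 21 days overlapped within both housing conditions. The log2 fold change of 21 days over 1 day was -1.09 (SE 0.59, unadjusted p = 0.091, adjusted p = 1, edgeR). Rat 1 of IC1D bore on this value, and without it the log2 fold change was -0.30 (unadjusted p = 0.588, edgeR).

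**Figure D4:**
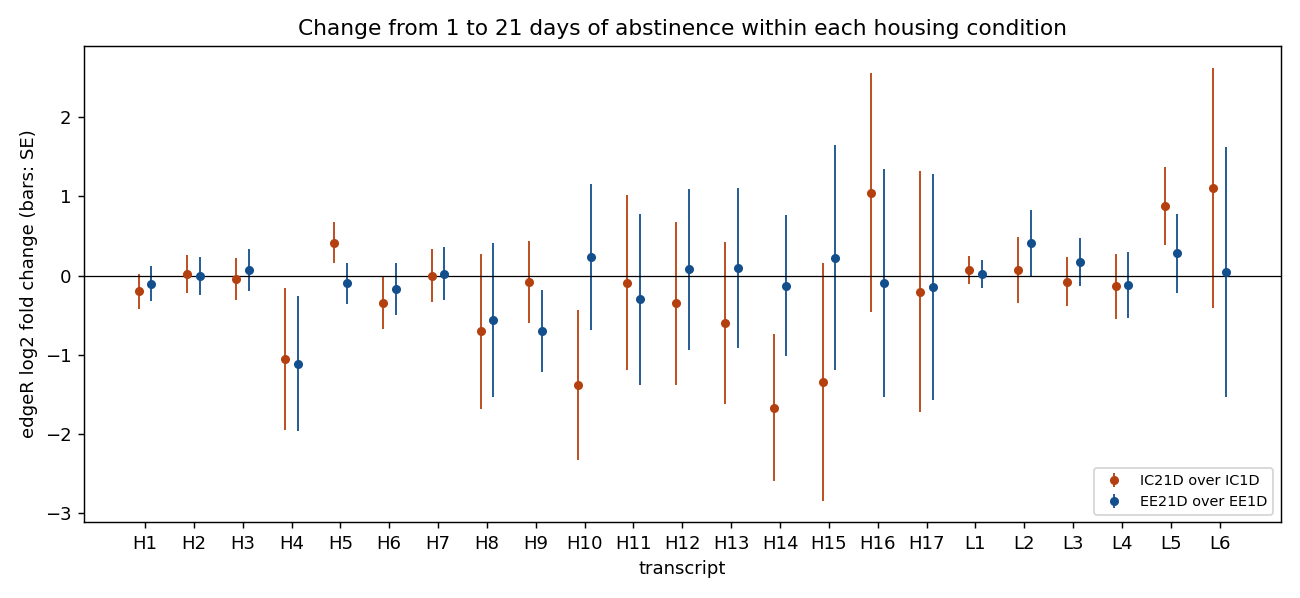
edgeR log2 fold change of 21 days over 1 day of abstinence within IC (orange) and within EE (blue) for each transcript, with bars for 1 SE. The bars are long for the transcripts with few counts, and H5, H10, H14 and L5 are the ones whose 21-day rats did not overlap the 1-day rats within IC.

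Within IC, the 3 rats at 21 days lay wholly above or below the 3 rats at 1 day for 4 of the 23 transcripts, beside 9.68% of the 17520. H5 and L5 were higher at 21 days (3.31% of the 17520) and H10 and H14 lower (6.37%). Within EE the same held for 0 of the 23, beside 8.11% of the 17520, of which 4.28% were higher and 3.83% lower. Counting either housing condition, the share of the 17520 was 17.1%, so 4 of 23 was near the background. An exact permutation test of 3 rats against 3 cannot go below p = 0.1.

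H5 was higher at 21 days in IC, with 14.2, 13.6 and 13.9 CPM at 1 day and 20.9, 17.8 and 17.6 CPM at 21 days. In EE it had 20.9, 27.2 and 27.5 CPM at 1 day and 23.2, 23.2 and 23.2 CPM at 21 days, which overlap. The change with abstinence differed between EE and IC by -0.51 (SE 0.36, log2), the smallest p of the 23 for this interaction (unadjusted p = 0.188, adjusted p = 0.955, edgeR). DESeq2 gave H5 an unadjusted p of 0.0209 and an adjusted p of 0.504 for it.

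H14 was lower at 21 days in IC, with 3.24, 2.26 and 3.45 CPM at 1 day and 1.76, 0 and 1.06 CPM at 21 days. Its EE rats had 4.52, 3.98 and 5.39 CPM at 1 day and 4.40, 4.25 and 3.82 CPM at 21 days. An exact permutation of the abstinence labels within housing gave a two-sided p of 0.02 on log2(CPM + 0.25), where 0.005 is the smallest p that its 400 relabelings can give. edgeR gave a log2 fold change of -0.89 (SE 0.67, unadjusted p = 0.214).

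H10 was lower at 21 days in IC as well, with 4.80, 7.24 and 6.32 CPM at 1 day and 3.39, 0 and 3.72 CPM at 21 days, and its EE rats overlapped. L5 was higher at 21 days in IC, with 4.69, 4.43 and 5.17 CPM at 1 day and 9.49, 9.54 and 7.65 CPM at 21 days. Its EE rats had 4.14, 2.54 and 2.03 CPM at 1 day and 3.96, 4.15 and 2.27 CPM at 21 days. The exact permutation p of L5 was 0.045, and edgeR gave a log2 fold change of 0.58 (SE 0.35, unadjusted p = 0.119). With H14 and with H8, at an exact p of 0.04, L5 made 3 of 23 transcripts at or under 0.05 before adjustment, beside 2.93% of the 17520. In H8 and H14 rat 2 of IC21D had 0 counts, which lowers their level at 21 days. Exact p-values without that rat were not computed.

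The interaction of housing and abstinence called 0 of the 23 with edgeR after adjustment, beside 0% of all tested, and 0 at an unadjusted p of 0.05, beside 5.15% of the 28622 and 4.04% of the 17520. DESeq2 called 0 of the 23 and 206 transcripts in the whole table. It put H5 and H14 at an unadjusted p of at most 0.05, beside 5.27% of the 28622. Within IC and within EE taken singly, edgeR put 0 of the 23 at an unadjusted p of 0.05, beside 4.47% and 2.02% of the 28622 and 4.41% and 1.32% of the 17520. Standard errors were wide for transcripts with few counts, 1.00 on the log2 scale for the abstinence change of H17 against 0.12 for L1, so a log2 change of 1 in H17 lay within 1 SE of 0.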

How the data were processed

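The authors deposited 1 table per rat with whole-number counts for each of 41064 Ensembl transcripts, without normalization. The submitters' processing notes name HISAT2 2.1.0 and StringTie 1.3.3.1, and the methods describe alignment to the Ensembl rat genome followed by assembly, merging and quantification of transcripts. How coverage became whole counts is not given in the sources used here. Groups came from the sample labels, which name no batch.

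CPM used each rat's total without the 8 transcripts with the largest sums over the 12 rats. Differences used log2(CPM + 0.25), and 3 counts were taken as the detection limit, which covers counting error only, since reads of amplified libraries are not independent molecules. Other library sizes were rescaled to the same geometric mean. Tests used R 4.3.3 with edgeR 4.0.16 (TMM, glmQLFit and glmQLFTest, Benjamini-Hochberg, threshold 0.05), and 28622 transcripts that had any count entered the fit. Abstinence length was tested with housing as a covariate, and the interaction and the changes within housing in a model with 4 groups. The SE was taken as |log2 fold change| over √F. DESeq2 1.42.0 was an alternative. Single transcripts were compared by an exact permutation of abstinence labels within housing. The models and the rule were tested on simulated data. The p-values weigh a difference against the spread between these rats, and cage mates in EE were treated as independent.

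The members, lists and alternatives were chosen with earlier results of these data known. The naming rule covered all members. Identifiers of 2 transcripts higher and 2 lower in EE are printed. The prepared lists of cell type markers and of genes, and sums over isoforms, were not used here, as no identifier matched a gene in the tables at hand. Of 66 library pairs, 0 held identical values.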

Additional observations from a re-analysis of the deposited data

Results flagged for a closer look

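Levels of the 23 transcripts were screened for a single rat far from the other 5 of its housing condition, over 46 groups of 6 rats. The gap to the nearest rat, as a share of the whole range, exceeded the critical value of Dixon's test for an outlier in 6 of them. Among unselected groups chance gives about 1 in 20, but these values also chose the transcripts, so that rate does not carry over and the 6 are a description. In H4 rat 1 of IC1D was highest among the IC rats at 6.92 CPM (62 counts), with the next at 1.49 CPM. In H8 rat 2 of IC21D was lowest at 0 CPM, with the next at 6.37 CPM. H9 had rat 2 of EE1D highest among the EE rats at 20.4 CPM, with the next at 9.81 CPM, and H10 had rat 3 of EE21D highest at 12.4 CPM, with the next at 8.90 CPM. In L3 rat 1 of IC1D was highest among the IC rats at 31.6 CPM, with the next at 23.8 CPM. In L6 rat 2 of IC21D was highest at 11.5 CPM (54 counts), with the next at 3.98 CPM. Rat 1 of IC1D and rat 2 of IC21D each account for 2 of the 6.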

How the results depend on the processing

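The count of 17 transcripts higher in EE became 11 with TMM, 5 with totals of all transcripts, 10 with the upper quartile and 7 when at least 10 counts in every rat were asked for. That last filter left 10342 transcripts, of which 0.116% were separated in either direction, beside 0.131% of the 17520. The count of 6 lower became 10 with TMM, 11 with the upper quartile and 10 with DESeq2 size factors. Leaving out each rat in turn raised both counts every time, to between 26 and 44 higher and between 8 and 23 lower, as fewer rats then had to be in order. The 23 stay in order by construction, and the 0 to 2 of them missing each time fell under a filter on counts. The sum was smallest without rat 1 of EE1D (36, 0.211% of the transcripts the rule then applied to) and largest without rat 3 of IC21D (62, 0.364%). The count of 4 transcripts without overlap by abstinence within housing was between 4 and 7 when a rat was left out, and 7 without rat 3 of IC1D, rat 2 of IC21D, rat 1 of EE1D or rat 1 of EE21D. Fewer rats had to be in order there too. The share of all transcripts without overlap is not given with a rat left out, so the rise is not a result about the members. The median log2 difference of the H transcripts was 1.02 to 1.95 with 1 or 0.05 CPM added in place of 0.25. Of the single folds, chosen for a second look after seeing the data, that of H4 rose from 20.8 to 40.1 without rat 1 of IC1D, that of H17 moved without rat 1 of IC21D, from 4.91 to 7.69, and that of L6 fell from 9.26 to 4.36 without rat 2 of IC21D.

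At an unadjusted p of 0.05, DESeq2 gave 2 of the 22 with a value for abstinence length, beside 2.53% of the 28622. For the interaction it gave 2 of the 23, beside 5.27%. Leaving out a rat with edgeR gave 0 to 1 and 0 to 2, beside 1.88% to 2.76% and 3.22% to 7.49% of all transcripts tested. The 1 for abstinence was H4, without rat 2 or rat 3 of IC1D. Without rat 1 of IC1D the interaction counted H4 (log2 difference -2.18, unadjusted p = 0.0239, adjusted p = 0.867) and H16, and without rat 1 of IC21D it counted H15. After adjustment 0 of the 23 were called under any setting run, with adjusted p-values from 0.504 upward. No paired analysis was possible because the labels give no replicate numbers shared between groups. With 3 rats per group and few counts for many of the 23, the depth limits what can be said of H15 to H17 and L6.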
